A study of Mus musculus with 4 samples.

Results

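To follow the genes that protect cells against oxidative damage and ferroptosis, 10 genes were read in the single-cell RNA sequencing data of subcutaneous Lewis lung carcinoma (LLC) tumors after hypofractionated radiotherapy: Hmox1, Nqo1, Gclm, Gclc, Slc7a11, Gpx4, Txnrd1, Srxn1, Prdx1 and Acsl4. They were matched by gene symbol, and all 10 of them were among the 18596 genes that the tables of all 4 libraries list. LLC is a mouse lung carcinoma line that grows in C57BL/6 mice. The tumors were grown under the skin of C57BL/6N mice (C57/BL6N in the sample labels) of 6 to 8 weeks. The radiotherapy group (RT) received 24 Gy in 3 fractions of 8 Gy on days 7 to 9 after injection, started at an average volume of 100 mm3, and consists of 3 libraries (RT1, RT2 and RT3), which the study treats as individual samples. The control group (NT) was mock-treated and is a single library made from 3 pooled tumors. Both groups were taken at 72 h, and no genotype or agent other than radiation differs between them. Subcutaneous growth of an injected line limits the model, since the tumors do not lie in the lung.

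Unique molecular identifiers (UMIs, each of which counts 1 captured RNA molecule) came to a total of 69667759 for NT against 78585759 for RT1, 108699844 for RT2 and 85660188 for RT3. The number of cells kept after the filters was 9976 for NT against 15029 for RT1, 14993 for RT2 and 15060 for RT3, and the median number of UMIs per cell was 5709 for NT against 3864 for RT1, 5199 for RT2 and 4158 for RT3. The RT2 table stands apart, since it lists 18605 genes by symbol only and no barcode in it has more than 12% mitochondrial UMIs, whereas the highest share is 92.6% in NT, 91.5% in RT1 and 97.0% in RT3. Between 4.61% and 5.39% of the barcodes of a library carry a sequence that is also found in another library. Whether any of them share RNA was not tested.

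Cells meet reactive oxygen with linked systems. The transcription factor NRF2 (encoded by Nfe2l2) is held back by KEAP1 and competes with BACH1 for antioxidant response elements in promoters and enhancers, and many of the genes read here are known targets of it. The cystine importer SLC7A11 and the glutamate-cysteine ligase subunits GCLC and GCLM feed the synthesis of glutathione, which GPX4 uses to reduce lipid peroxides, while ACSL4 loads membranes with the polyunsaturated fatty acids whose peroxidation drives ferroptosis, an iron-dependent form of cell death. TXNRD1, PRDX1 and SRXN1 belong to the thioredoxin and peroxiredoxin system, NQO1 reduces quinones, and HMOX1 cleaves heme to biliverdin, carbon monoxide and iron, a step for which tumor macrophages are known. Ionizing radiation generates reactive oxygen in tissue.

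The antioxidant response element is represented by its core TGACNNNGC, and the promoters are shown because NRF2 is known to bind this element at many of its targets. RefSeq promoters of 300 bases (250 before to 50 after a start site, build GRCm38.p6) were present for 8 of the 10 genes, in 13 windows, and 4 windows held the core on either strand, all 4 of them on the minus strand relative to transcription. Of all 32851 promoters of that length, 12.4% held it. The 4 matches are printed with 10 bases on either side, read along the transcribed strand, with the 9 bases of the core in capitals.
Gclm, chr3:122245413-122245441, plus strand, core from base -134: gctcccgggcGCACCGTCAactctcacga
Txnrd1, chr10:82859104-82859132, plus strand, core from base -92: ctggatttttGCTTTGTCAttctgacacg
Prdx1, chr4:116685456-116685484, plus strand, core from base -133: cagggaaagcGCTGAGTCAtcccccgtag
Srxn1, chr2:152105542-152105570, plus strand, core from base 29: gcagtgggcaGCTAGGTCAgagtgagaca
Bases are counted from the start site, with negative numbers upstream. A match describes letters only, and the other windows, of Nqo1, Slc7a11, Gpx4, Acsl4 and the further starts of Txnrd1, held no such letters. Hmox1 and Gclc have no window here.

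The 55058 kept cells of 55805 barcodes fell into 17 clusters, of which 14 could be named from markers. Tumor-like cells numbered 6087 for NT against 5943 for RT1, 5279 for RT2 and 7373 for RT3, macrophage-like cells 539 for NT against 2074 for RT1, 1997 for RT2 and 1170 for RT3, and monocyte-like cells 553 for NT against 1882 for RT1, 2066 for RT2 and 1905 for RT3. Dendritic-like, neutrophil-like, lymphocyte-like, fibroblast-like and endothelial-like cells were fewer, with only 22 neutrophil-like and 18 fibroblast-like cells in NT. Defining markers were checked, and Rhox5, an X-linked homeobox gene of the LLC line, was at 1074 to 1327 CPM (counts per 1e6 UMIs of the class) in tumor-like cells over the 4 libraries, and C1qb, a complement gene of macrophages, was at 1897 to 5053 in macrophage-like and 0.906 to 12.8 in tumor-like cells. Of the other tumor markers, Krt8 was at 568 to 780.3 CPM, while Prl2c2 was at 0.304 to 0.617 and Prl2c3 at 0.0675 to 0.150, near 0. Ly6c2, a surface antigen of inflammatory monocytes, was at 726 to 2245 in monocyte-like cells. The lymphocyte-like cluster also held mast cell genes, with Cma1 at 3.10 to 1356 CPM. In the endothelial-like cluster the measured erythroid markers were also at their highest level over the clusters. RNA of tumor cells was present in all other classes, and Rhox5 reached 3.12% to 4.85% of its tumor-like level in macrophage-like, 5.73% to 9.35% in monocyte-like, 17.7% to 31.8% in lymphocyte-like and 47.0% to 84.3% in neutrophil-like cells.

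For each library, the UMIs of a gene in a class were divided by all UMIs of that class and scaled to counts per 1e6 (CPM). The 3′ counts are not corrected for gene length, and levels are compared between cells or libraries, not between genes. As NT is a single library, the spread between control libraries is unknown, and no test between NT and RT is given. A gene with a mean of at least 20 UMIs per library was called changed when it differed by at least 1.5-fold in the same direction in all 3 RT libraries, and log2 ratios are given as the mean ± SD over the RT libraries (n = 3). Intervals around a single value are exact Poisson intervals and, like a floor of 3 counts, cover counting error only. Cells were grouped by their expression, so differences between classes are descriptions as well.

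Hmox1 was above all a macrophage gene in these tumors. Its level was 2397 CPM for NT against 2438 for RT1, 2035 for RT2 and 3722 for RT3 in macrophage-like cells. In tumor-like cells it was 66.7 CPM for NT against 68.5 for RT1, 39.4 for RT2 and 143 for RT3. In every library the macrophage-like level was the higher, by 36.2-fold on average (log2 5.18 ± 0.40, n = 4). Monocyte-like cells came second with 1291 ± 727 (SD, n = 4) and lay below macrophage-like cells within each library, although the ranges of both classes over libraries overlapped. Neutrophil-like cells (371 ± 132) and dendritic-like cells (267 ± 117) followed, and tumor-like cells had the lowest mean of the 8 classes (79.3 ± 44.2). The tumor-like mean was not separated from that of lymphocyte-like cells (80.3 ± 27.7). The complement genes C1qa, C1qb and C1qc were in tumor-like cells at 0.0431% to 0.296% of their macrophage-like level, and Hmox1 at 1.94% to 3.83%.

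**Figure D1:**
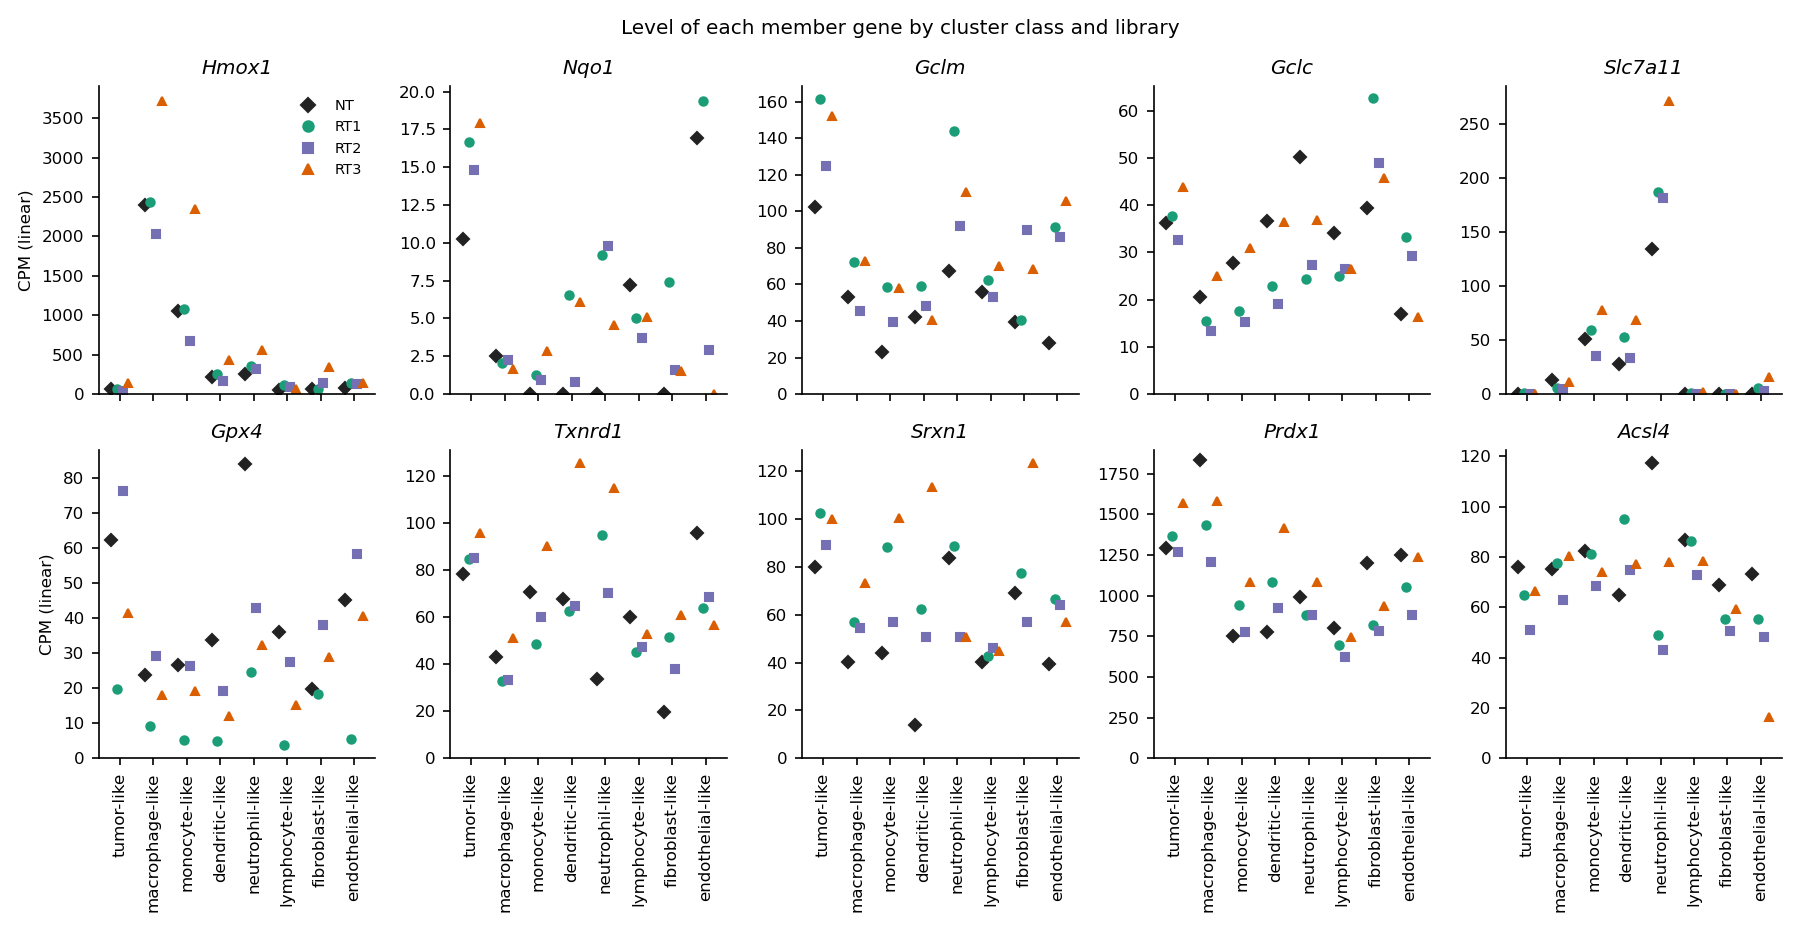
Each panel shows 1 gene, with CPM on a linear axis from 0, the 8 named classes along the horizontal axis and 1 point per library (NT diamonds, RT1 circles, RT2 squares, RT3 triangles). Hmox1 stood highest in macrophage-like and monocyte-like cells, and Slc7a11 in neutrophil-like cells and near 0 in tumor-like cells. Gpx4 was lowest in RT1 in all 8 classes, from few UMIs in the smaller classes.

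After radiotherapy, Hmox1 rose over the whole library but not within its main sources. Over all kept cells its level was 176 CPM for NT against 401 for RT1, 330.2 for RT2 and 429 for RT3, which passed the size rule (1.13 ± 0.20 on the log2 scale), as did 10.6% of the 13790 genes tested there, with 1.49% passing downward. Within tumor-like cells the RT libraries lay on both sides of NT, with RT2 lower and RT3 higher, and the same order was seen in macrophage-like cells and in monocyte-like cells (1058 CPM for NT against 1083 for RT1, 677 for RT2 and 2345 for RT3). RT3 had the highest Hmox1 level in 7 of 8 classes. In neutrophil-like (0.66 ± 0.43), lymphocyte-like (0.84 ± 0.38), fibroblast-like (1.29 ± 1.23) and endothelial-like cells (0.78 ± 0.13) every RT library was above NT. These small classes had 6 to 48 Hmox1 UMIs in NT, and each held at most 0.621% of the Hmox1 UMIs of a library. Macrophage-like cells held 47.1% for NT against 65.5% for RT1, 70.9% for RT2 and 42.2% for RT3 of all Hmox1 UMIs, and tumor-like cells 29.7% for NT against 9.91% for RT1, 6.59% for RT2 and 23.1% for RT3. When the NT level of each class was combined with each RT library's own share of UMIs per class, the level over all cells came to 404, 430.4 and 244, a log2 ratio of 0.99 ± 0.45 to NT. When instead each library's own levels were combined with the NT shares, it came to 177, 126 and 315, with a ratio of 0.13 ± 0.67 and both directions among the libraries.

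**Figure D2:**
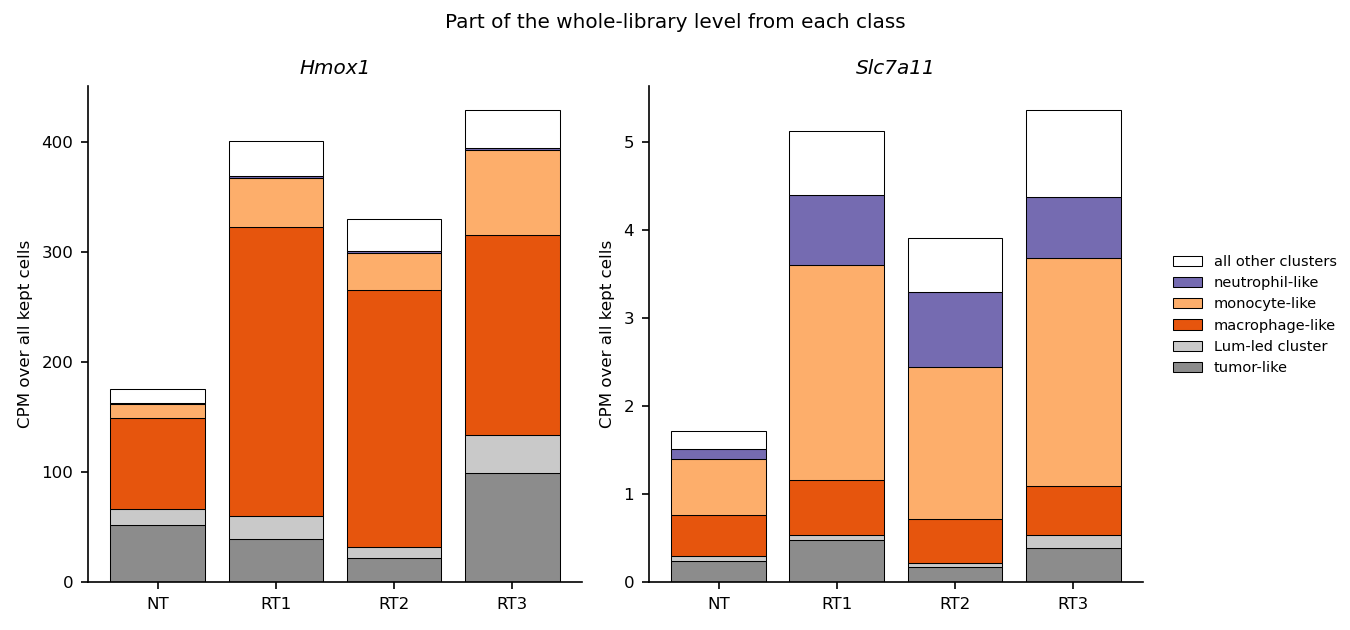
Stacked bars give the CPM over all kept cells of each library, on a linear axis from 0, divided by the class whose cells held the UMIs, for Hmox1 and Slc7a11. The macrophage-like part of Hmox1 and the monocyte-like part of Slc7a11 were larger in RT1, RT2 and RT3 than in NT.

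Slc7a11, the cystine importer, was nearly absent from tumor-like cells and was carried by myeloid cells. In neutrophil-like cells its level was 134 CPM for NT against 187 for RT1, 182 for RT2 and 271 for RT3, from 8 for NT against 61 for RT1, 93 for RT2 and 59 for RT3 UMIs, and these cells lay above every other class in every library. Monocyte-like cells had 51.0 CPM for NT against 59.5 for RT1, 34.8 for RT2 and 78.1 for RT3, and dendritic-like cells 28.2 CPM for NT against 52.6 for RT1, 33.2 for RT2 and 68.9 for RT3. Macrophage-like cells had less (4.32 to 13.4), with no overlap of their range with that of dendritic-like cells. In tumor-like cells the level was 0.314 CPM for NT against 0.821 for RT1, 0.317 for RT2 and 0.557 for RT3, or 17 for NT against 37 for RT1, 19 for RT2 and 33 for RT3 UMIs, although these cells held between 55.2% and 78.1% of all UMIs in each library. In fibroblast-like cells no UMI was counted, and 3 counts would have amounted to between 4.57 and 29.6 CPM.

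Over all kept cells, Slc7a11 passed the size rule upward, from 1.72 in NT to 5.12, 3.91 and 5.36 in the RT libraries (1.47 ± 0.25, log2). With NT levels and own class shares the ratio was 1.35 ± 0.38, and with own levels and NT shares 0.22 ± 0.58. Monocyte-like cells held 37.0% for NT against 47.7% for RT1, 44.0% for RT2 and 48.2% for RT3 of its UMIs. Within monocyte-like cells RT2 was below NT whereas RT1 and RT3 were above it. Within macrophage-like cells the level was 13.4 CPM for NT against 5.74 for RT1, 4.32 for RT2 and 11.4 for RT3, lower in all 3 RT libraries (-1.03 ± 0.72), but RT3 by too little for the size rule. In tumor-like cells all 3 RT values were nominally above NT, with that of RT2 inside the counting interval of NT (0.183 to 0.503).

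Both subunits of the ligase that makes the glutathione precursor were higher in tumor-like than in macrophage-like and monocyte-like cells in all 4 libraries, and the modifier subunit Gclm was higher after radiotherapy in tumor-like and monocyte-like cells. Gclm was at 102 CPM for NT against 162 for RT1, 125 for RT2 and 152 for RT3 in tumor-like cells. All 3 RT libraries lay above NT (0.51 ± 0.19), and RT2 was within the 1.5-fold limit. In macrophage-like cells Gclm was at 53.1 CPM for NT against 72.2 for RT1, 45.7 for RT2 and 72.7 for RT3, on both sides of NT. Neutrophil-like cells had 103 ± 32.3 (SD, n = 4), in a class with much tumor RNA as read from Rhox5, whose part was not tested. In monocyte-like cells Gclm was at 23.2 CPM for NT against 58.5 for RT1, 39.5 for RT2 and 58.2 for RT3 and was called higher (1.14 ± 0.33), the only call among the 10 genes in the 3 largest named classes. That call rested on 20 for NT against 187 for RT1, 212 for RT2 and 164 for RT3 UMIs and was not made with at least 500 genes per cell, without integration, at resolution 0.4 or 1.2, or with a mean over cells. The highest mean of the catalytic subunit Gclc was in fibroblast-like cells (49.2 ± 9.88, with 4 UMIs in NT). They lay above tumor-like cells (37.6 ± 4.68) within each library, although the ranges of both classes over libraries overlapped. Gclc was at 36.2 CPM for NT against 37.8 for RT1, 32.6 for RT2 and 43.8 for RT3 in tumor-like cells, on both sides of NT, as in macrophage-like (-0.25 ± 0.48) and monocyte-like cells (-0.46 ± 0.54). In the gene models of GENCODE vM21, exons of Gclm overlap those of a processed pseudogene on the same strand, and reads there cannot be divided.

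Nqo1, the quinone reductase, had its highest mean in tumor-like cells (14.9 ± 3.34), followed with overlap by endothelial-like cells (9.81 ± 9.77, from 12 UMIs in all). Its level was 10.3 CPM for NT against 16.7 for RT1, 14.8 for RT2 and 17.9 for RT3, and the RT mean of 16.5 ± 1.57 compares with 10.3 (95% counting interval 9.45 to 11.2) in NT. All 3 RT libraries were higher (0.67 ± 0.14), and RT2 stayed below 1.5-fold. In macrophage-like and monocyte-like cells Nqo1 was under the minimum of 20 UMIs per library, at 1.69 to 2.51 and 0 to 2.84 CPM, and the monocyte-like cells of NT had no UMI, where 3 counts would have been 3.48.

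In the thioredoxin and peroxiredoxin system, Srxn1 was nominally higher in every RT library in 6 of 8 classes. Prdx1 differed in direction between myeloid classes. Srxn1 encodes sulfiredoxin, which restores over-oxidized peroxiredoxins, and was at 80.1 CPM for NT against 103 for RT1, 89.0 for RT2 and 100.1 for RT3 in tumor-like cells (0.28 ± 0.11). In macrophage-like cells it was at 40.2 CPM for NT against 57.0 for RT1, 54.7 for RT2 and 73.2 for RT3, and in monocyte-like cells at 44.1 CPM for NT against 88.3 for RT1, 56.8 for RT2 and 100.5 for RT3. Every RT library was above NT in these 3 classes, with log2 means of 0.60 ± 0.23 in macrophage-like and 0.85 ± 0.43 in monocyte-like cells. None of the 3 passed the size rule in all libraries. At 12% mitochondrial UMIs, at resolution 0.4 and with a mean over cells, Srxn1 was called higher in monocyte-like cells. Of all genes tested, 11.3%, 10.4% and 14.8% were called higher under these settings. In dendritic-like cells Srxn1 was called higher (14.1 CPM for NT against 62.4 for RT1, 50.6 for RT2 and 114 for RT3), from 5 UMIs in NT, in a class where 7.46% of the genes tested were called higher and 3.59% lower. In endothelial-like (log2 0.66 ± 0.12) and lymphocyte-like cells (0.14 ± 0.06) it was nominally higher in every RT library without passing the rule. Every RT value there lay inside the counting interval of NT (15.9 to 81.3 and 28.6 to 55.0 CPM), so that no difference was detectable. The endothelial-like cells of NT had 7 Srxn1 UMIs, and the gene reached the minimum through RT1 and RT2.

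Prdx1, an abundant peroxidase, was at 1833 CPM for NT against 1432 for RT1, 1208 for RT2 and 1579 for RT3 in macrophage-like cells, lower in every RT library (-0.39 ± 0.20). In monocyte-like cells it was at 749 CPM for NT against 945 for RT1, 775 for RT2 and 1085 for RT3, higher in every RT library (0.31 ± 0.24), where the median over all genes tested was itself 0.17 and RT2 exceeded NT by less than that (0.05). In tumor-like cells the RT libraries lay on both sides (0.11 ± 0.16). The levels of macrophage-like (1513 ± 263) and tumor-like cells (1374 ± 137) were not separated beyond the spread over libraries. The range of tumor-like cells (1266 to 1570) did not overlap that of the next class by mean, endothelial-like cells. It did overlap that of dendritic-like cells (779 to 1413). Txnrd1, the selenoprotein that reduces thioredoxin, was at 78.2 CPM for NT against 84.9 for RT1, 85.3 for RT2 and 95.9 for RT3 in tumor-like cells, higher in each RT library by a small margin (0.18 ± 0.10). In macrophage-like (-0.17 ± 0.36) and monocyte-like cells (-0.14 ± 0.45) Txnrd1 lay on both sides of NT. Its mean ranged from 86.1 ± 7.35 in tumor-like to 40.1 ± 8.63 in macrophage-like cells, and that of Srxn1 from 92.9 ± 10.4 in tumor-like to 43.4 ± 2.54 in lymphocyte-like cells, with overlap between all neighbors in either order.

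Gpx4, the selenoprotein that removes lipid peroxides, had RT libraries on both sides of NT in tumor-like and macrophage-like cells. In tumor-like cells it was at 62.2 CPM for NT against 19.8 for RT1, 76.2 for RT2 and 41.3 for RT3. RT1 was far below NT and RT2 above it, and RT1 had the lowest Gpx4 level of the 4 libraries in all 8 classes. In the smaller classes this rested on few RT1 UMIs, from 2 in endothelial-like to 8 in neutrophil-like cells. In fibroblast-like cells RT1 (18.5 CPM) was close to NT (19.7 CPM). In macrophage-like cells the values were 23.9 CPM for NT against 9.32 for RT1, 29.1 for RT2 and 18.1 for RT3, and in monocyte-like cells 26.7 CPM for NT against 5.32 for RT1, 26.4 for RT2 and 19.2 for RT3, where RT2 and RT3 lay inside the counting interval of NT (16.9 to 40.0). The means over libraries went from 49.9 ± 24.7 in tumor-like to 17.5 ± 12.3 in dendritic-like cells, with overlap between all neighbors. Other genes moved with it, and in tumor-like cells the ribosomal protein gene Rpl35 was at 219 for NT against 126 for RT1, 186 for RT2 and 144 for RT3, Ndufb7 of respiratory complex I at 16.5 for NT against 5.35 for RT1, 13.6 for RT2 and 13.2 for RT3 and Uqcr11 of complex III at 15.5 for NT against 7.37 for RT1, 15.8 for RT2 and 12.9 for RT3, lowest in RT1 each time. The summed share of ribosomal protein genes did not follow, as a percentage of tumor-like UMIs at 13.5 for NT against 13.8 for RT1, 15.3 for RT2 and 13.8 for RT3. The part of these in the Gpx4 values was not tested. Mouse Gpx4 has an annotated pseudogene copy, Gpx4-ps2, so the division of reads between them is uncertain.

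Acsl4, which promotes ferroptosis, differed little between the classes, with means from 48.3 in endothelial-like to 81.1 in lymphocyte-like cells and overlapping ranges between all neighbors in that order. In tumor-like cells it was at 75.9 CPM for NT against 64.7 for RT1, 51.1 for RT2 and 66.4 for RT3, lower in all 3 RT libraries (-0.33 ± 0.21) and within 1.5-fold in each. In monocyte-like cells it was nominally lower by 0.15 ± 0.12 on average, with every RT value inside the counting interval of NT (64.3 to 104). In macrophage-like cells RT libraries lay on both sides (-0.04 ± 0.19).

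Counted over the 10 genes, few differences reached 1.5-fold in all RT libraries of the 3 largest classes. In tumor-like cells 0 of 10 were called in either direction, against 6.87% of 12280 genes called higher and 0.871% called lower. Without RT2, Nqo1 and Slc7a11 were called higher and Gpx4 lower, when 7.64% of all genes tested were called higher and 3.49% lower. With no minimum size, 5 of 10 (Nqo1, Gclm, Slc7a11, Txnrd1 and Srxn1) were higher in every RT library and 1 (Acsl4) was lower, against 30.5% and 30.6% of all genes tested. The median log2 ratio of the 10 was 0.15, beside -0.02 over all genes. In macrophage-like cells 0 of 9 genes tested were called (background 9.54% higher and 6.96% lower), 1 (Srxn1) was higher in every RT library and 2 (Slc7a11 and Prdx1) were lower, against 33.7% and 34.0%. In monocyte-like cells 1 of 9 was called higher and 0 lower (background 13.5% and 2.97%), 3 (Gclm, Srxn1 and Prdx1) were higher in every RT library and 2 (Gpx4 and Acsl4) lower, against 45.3% and 21.5%. In smaller classes, calls rested on few UMIs in NT. In endothelial-like cells Hmox1 (0.78 ± 0.13, from 14 UMIs in NT) and Gclm (1.74 ± 0.15, from 5) were called higher, as were 8.14% of the genes tested there, and the counting intervals of all 3 RT libraries overlapped that of NT for both genes. This cluster also held erythroid markers, whose part in these calls was not tested. Txnrd1 passed the size rule in neutrophil-like cells (33.5 CPM for NT against 94.8 for RT1, 70.4 for RT2 and 115 for RT3) and in fibroblast-like cells (19.7 CPM for NT against 51.7 for RT1, 37.9 for RT2 and 60.9 for RT3), as did 21% and 18.4% of the genes tested there. It had 2 UMIs in NT in each of these classes, under the floor of 3 counts, and reached the minimum through the RT libraries. Every RT value lay inside the counting interval of NT (95% interval 4.06 to 121 and 2.39 to 71.2 CPM), so that no difference was detectable at this depth.

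**Figure D3:**
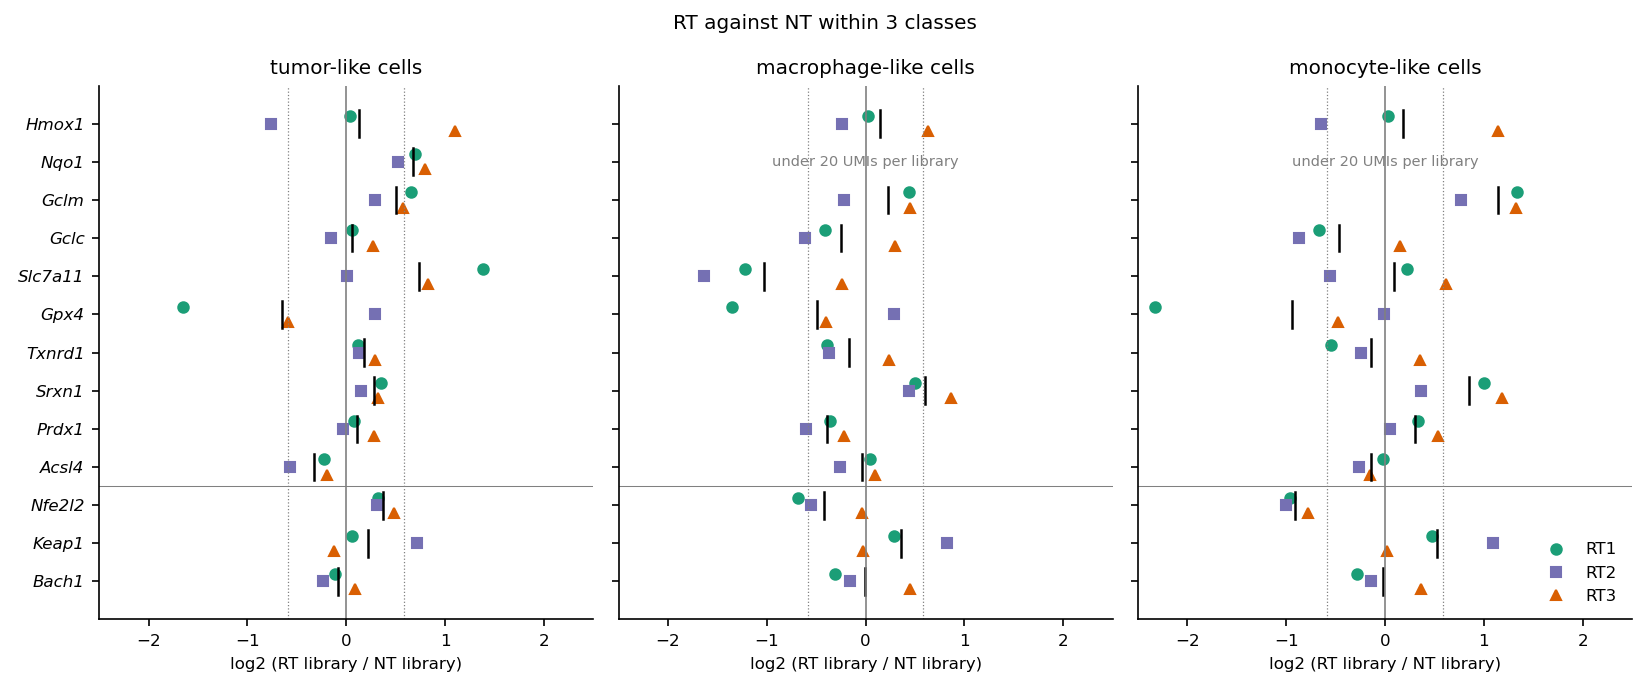
The log2 ratio of each RT library to the NT library is plotted for the 10 genes and, under the horizontal line, for Nfe2l2, Keap1 and Bach1, in tumor-like, macrophage-like and monocyte-like cells. Short vertical bars mark the mean of the 3 RT libraries and dotted lines the 1.5-fold limits. Nfe2l2 was above NT in tumor-like cells and below NT in both myeloid classes, and Hmox1 spread to both sides of 0 with RT2 lowest and RT3 highest.

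Nfe2l2, which encodes NRF2, was at 113 CPM for NT against 141 for RT1, 140.2 for RT2 and 158 for RT3 in tumor-like cells, higher in all 3 RT libraries (0.37 ± 0.10). In macrophage-like cells it was at 642 CPM for NT against 400.2 for RT1, 436 for RT2 and 626 for RT3, lower in all 3 (-0.42 ± 0.34), with RT3 near NT. In monocyte-like cells it was at 1149 CPM for NT against 589 for RT1, 575 for RT2 and 672 for RT3, which was called lower (-0.91 ± 0.12). This call was not made at resolution 0.4, where the mean log2 ratio was -0.71. The difference between the classes was not tested. Nfe2l2 RNA was higher in macrophage-like than in tumor-like cells in all 4 libraries, by 3.75-fold on average. Bach1, its competitor on promoters and a repressor of Hmox1, showed the same order of classes (4.49-fold), and was on both sides of NT in all 3 classes (-0.09 ± 0.16 in tumor-like, -0.01 ± 0.40 in macrophage-like and -0.02 ± 0.34 in monocyte-like cells). Keap1 was at a like level in tumor-like and macrophage-like cells (log2 ratio 0.00 ± 0.09, n = 4). It was highest in RT2 in the 3 classes, with 22.5 CPM for NT against 23.5 for RT1, 37.0 for RT2 and 20.7 for RT3 in tumor-like cells, and an antisense transcript overlaps its exons.

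The wider pathway was read from 10 lists with 84 genes. In tumor-like cells 13 of 77 genes tested were called higher and 2 lower, beside 6.87% and 0.871% of all genes tested, with a median log2 ratio of 0.12 beside -0.02. The ferroptosis iron list held 1 of them, Fth1, the ferritin heavy chain that stores iron, at 2440.1 CPM for NT against 6027 for RT1, 6117 for RT2 and 5959.5 for RT3. The 3 RT libraries were nearly equal, 2.47-fold above NT. Among glutathione genes 4 of 13 were called higher (Gss, Gstm1, Gstm5 and Gsta4) and 1 lower (Chac1). Gss, which completes glutathione, was at 6.42 CPM for NT against 21.1 for RT1, 25.5 for RT2 and 14.2 for RT3, and Gsta4, a transferase for lipid aldehydes, at 11.4 CPM for NT against 28.7 for RT1, 26.2 for RT2 and 27.2 for RT3. The other calls were Txnip, which binds thioredoxin, G6pdx of the pentose phosphate pathway, Slc48a1, a heme transporter, Sod1 and the genes of the next paragraph. Chac1, which degrades glutathione, was at 6.47 CPM for NT against 3.73 for RT1, 3.25 for RT2 and 3.99 for RT3, a call not made with a mean over cells. With a mean over cells Txnip was not called either, nor were G6pdx and Slc48a1 with TMM factors, nor G6pdx at 12% mitochondrial UMIs or when an unnamed cluster led by Lum was counted as tumor-like.

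Extracellular superoxide dismutase Sod3 was at 2.79 CPM for NT against 4.73 for RT1, 14.1 for RT2 and 4.71 for RT3 in tumor-like cells. The fatty acid desaturase Fads2 was called lower, at 18.9 CPM for NT against 8.83 for RT1, 9.66 for RT2 and 8.02 for RT3, the only call of the 10 tested genes in the lipid enzyme list, of which 7 were lower in every RT library, beside 30.6% of all genes tested. Among superoxide sources, Cybb and Rac2 of the phagocyte oxidase were called higher, at 0.0758% to 0.604% of their macrophage-like level. Rac2 was at 0.499 CPM for NT against 3.35 for RT1, 3.00 for RT2 and 2.06 for RT3. Macrophage markers were higher with them in tumor-like cells, all 8 of 8 in every RT library, with a summed level of 5.46 CPM for NT against 28.4 for RT1, 39.2 for RT2 and 14.4 for RT3 and C1qb as the most abundant. Neutrophil markers, also 8 of 8, summed to 3.72 CPM for NT against 8.43 for RT1, 10.3 for RT2 and 8.14 for RT3. Fibroblast markers (5 of 8, Col3a1 the most abundant) summed to 822 CPM for NT against 1356 for RT1, 1072 for RT2 and 1276 for RT3. Monocyte markers (7 of 8, Vcan the most abundant) summed to 107 CPM for NT against 146 for RT1, 160 for RT2 and 156 for RT3. The part of these markers in the calls of this class was not tested. With free RNA subtracted, Rac2 was still called and Cybb was not, nor was Cybb without integration. None of the 8 genes of NRF2 control and none of the 5 of selenoprotein synthesis was called in tumor-like cells.

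In macrophage-like cells 4 of 74 pathway genes tested were called higher and 4 lower (median 0.04, beside -0.01 over all genes). Over all genes tested 9.54% were called higher and 6.96% lower, so that these counts do not stand above the background. Markers of other cell types differed in the same cells. Neutrophil markers (6 of 8 higher in every RT library, Csf3r the most abundant) summed to 28.5 CPM for NT against 93.0 for RT1, 131 for RT2 and 93.3 for RT3, and fibroblast markers (6 of 8, Col3a1 the most abundant) to 32.6 CPM for NT against 94.1 for RT1, 56.9 for RT2 and 96.2 for RT3. Their part in the calls was not tested. Fth1 was at 4653 CPM for NT against 10046 for RT1, 9754 for RT2 and 10108 for RT3. The glutathione transferases Gstm1 and Mgst1 were higher by 1.19 ± 0.40 and 1.15 ± 0.22, and Alox5, a lipoxygenase that makes leukotrienes, was at 27.6 CPM for NT against 82.1 for RT1, 48.3 for RT2 and 55.1 for RT3. Those called lower were the pentose phosphate enzymes Tkt and Taldo1, Prdx4 and Lpcat3. Tkt was at 64.9 CPM for NT against 14.2 for RT1, 24.9 for RT2 and 17.6 for RT3, the largest downward difference among the calls of this class. Taldo1 was lower by 0.85 ± 0.07, Prdx4, a peroxiredoxin of the endoplasmic reticulum, by 0.79 ± 0.20, and Lpcat3, which places polyunsaturated fatty acids in phospholipids, by 0.82 ± 0.06. The Prdx4 call was not made at resolution 0.4 or with a mean over cells, and the Gstm1 call not with a mean over cells.

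In monocyte-like cells 13 of 68 were called higher and 2 lower, with a median of 0.16 beside 0.17 over all genes of that class, of which 13.5% were called higher and 2.97% lower. Neutrophil markers (8 of 8 higher in every RT library, Il1r2 the most abundant) summed to 131 CPM for NT against 405 for RT1, 458 for RT2 and 526 for RT3 in these cells. Fibroblast markers (5 of 8, Col3a1 the most abundant) summed to 60.3 CPM for NT against 144 for RT1, 104 for RT2 and 202 for RT3. Dendritic markers, with Siglech at 0 and Ccr7 the most abundant, summed to 39.4 CPM for NT against 10.6 for RT1, 11.4 for RT2 and 10.7 for RT3. The part of these markers in the calls of this class, Gclm included, was not tested. Dhodh, a mitochondrial enzyme of pyrimidine synthesis that also protects from ferroptosis, was at 1.16 CPM for NT against 5.95 for RT1, 10.1 for RT2 and 8.17 for RT3, and Aifm2, which encodes the ferroptosis suppressor FSP1, at 4.64 CPM for NT against 14.7 for RT1, 10.4 for RT2 and 11.4 for RT3. The UMIs of Dhodh were 1 for NT against 19 for RT1, 54 for RT2 and 23 for RT3, and those of Aifm2 4 for NT against 47 for RT1, 56 for RT2 and 32 for RT3, so that both reached the minimum of 20 UMIs through the RT libraries, and the NT value of Dhodh lies under the floor of 3 counts. Gstm1 was called higher as in tumor-like cells (1.29 ± 0.26), and so was the NADPH-forming enzyme Pgd (1.23 ± 0.66). Gss and Me1, another NADPH-forming enzyme, were also called higher, with 2 UMIs each in NT, under the floor as well. The counting intervals of all 3 RT libraries overlapped that of NT for Aifm2 and Gss. Ptgs2, cyclooxygenase 2, was called lower along with Nfe2l2, at 1171 CPM for NT against 611 for RT1, 516 for RT2 and 716 for RT3. Fth1 was called higher here as well (0.82 ± 0.19), though not with TMM factors or with free RNA subtracted. The Dhodh and Me1 calls were not made with free RNA subtracted, nor was Me1 called with at least 500 genes per cell, at resolution 0.4 or without RT3. Dhodh and Gss were not called without RT2. Pgd was not called at 12% mitochondrial UMIs or without integration, nor was Ptgs2 called without integration or at resolution 0.4.

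The members also differed between states within a class. When tumor-like cells were clustered again, Hmox1 was highest in a sub-cluster led by Adm, Bnip3, Vegfa and Slc2a1, known hypoxia-induced genes, named T9 here. Its level there was 803 CPM for NT against 482 for RT1, 105 for RT2 and 762 for RT3, whereas the lowest of the 13 tumor-like sub-clusters averaged 35.9 CPM. All RT libraries were below NT in T9, and RT2, the lowest, had 72 cells in it. A further sub-cluster, T7, was led by Aldh1l2, Slc7a3 and Trib3, the last a known target of the stress factor ATF4, and had the highest means of Gclm, Gclc, Slc7a11, Srxn1 and Prdx1. Slc7a11 was at 5.54 CPM for NT against 11.5 for RT1, 6.06 for RT2 and 7.99 for RT3 in T7, from 45 of the 106 tumor-like UMIs of this gene. Gclc was at 56.5 CPM for NT against 60.1 for RT1, 66.7 for RT2 and 84.8 for RT3 and Prdx1 at 1261 CPM for NT against 1597 for RT1, 1744 for RT2 and 2087 for RT3, higher than NT in all RT libraries. The cells of T7 numbered 123 for NT against 281 for RT1, 258 for RT2 and 265 for RT3.

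Gpx4 was highest in T4 and T8, which were led by ribosomal protein genes, in T4 with Ndufb7 and Uqcr11, with 168 CPM for NT against 158 for RT1, 299 for RT2 and 214 for RT3 in T4. There RT1 was close to NT. T4 made up 12.6% of tumor-like cells for NT against 4.41% for RT1, 8.11% for RT2 and 8.37% for RT3. The part of this in the tumor-like Gpx4 levels was not tested. T8 cells were shallow, with a median of 915.5 UMIs. Across the tumor-like sub-clusters with at least 20 NT UMIs of the gene, Nqo1 was higher in every RT library in 6 of 6, Gclm in 10 of 13, Srxn1 in 9 of 12 and Nfe2l2 in 13 of 13, and Acsl4 was lower in 10 of 12. Hmox1 lay on both sides of NT in 10 of 12. These sub-clusters share their libraries and are not independent of each other.

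Macrophage-like, monocyte-like and dendritic-like cells were clustered again together, without neutrophil-like cells. Among the 12 of these myeloid sub-clusters with at least 20 cells in every library, M6 had the highest means of 8 of the 10 genes. It was led by Mmp12, the macrophage elastase, Atp6v0d2 and Gpnmb, a glycoprotein of lysosomes, with the hypoxia-induced genes Bnip3, Ero1l and Egln3. Hmox1 was at 7333 CPM for NT against 5481 for RT1, 3844 for RT2 and 8656 for RT3 in M6, and Prdx1 at 5729 CPM for NT against 3682 for RT1, 2950.1 for RT2 and 2936 for RT3. Slc7a11 was at 128 CPM for NT against 82.1 for RT1, 56.8 for RT2 and 83.9 for RT3, Srxn1 at 208 CPM for NT against 193 for RT1, 152 for RT2 and 184 for RT3 and Gclm at 304 CPM for NT against 177 for RT1, 106 for RT2 and 166 for RT3. RT libraries lay on both sides of NT for Hmox1 and below it for the other 4, with 57 for NT against 294 for RT1, 223 for RT2 and 284 for RT3 cells. Gclc, Txnrd1 and Acsl4 were also highest there. The exceptions were Gpx4, highest in M8, led by Ndufb7 and Rpl35 like T4, and Nqo1, highest in M10, which had the tumor gene Rhox5 among its leading genes.

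**Figure D4:**
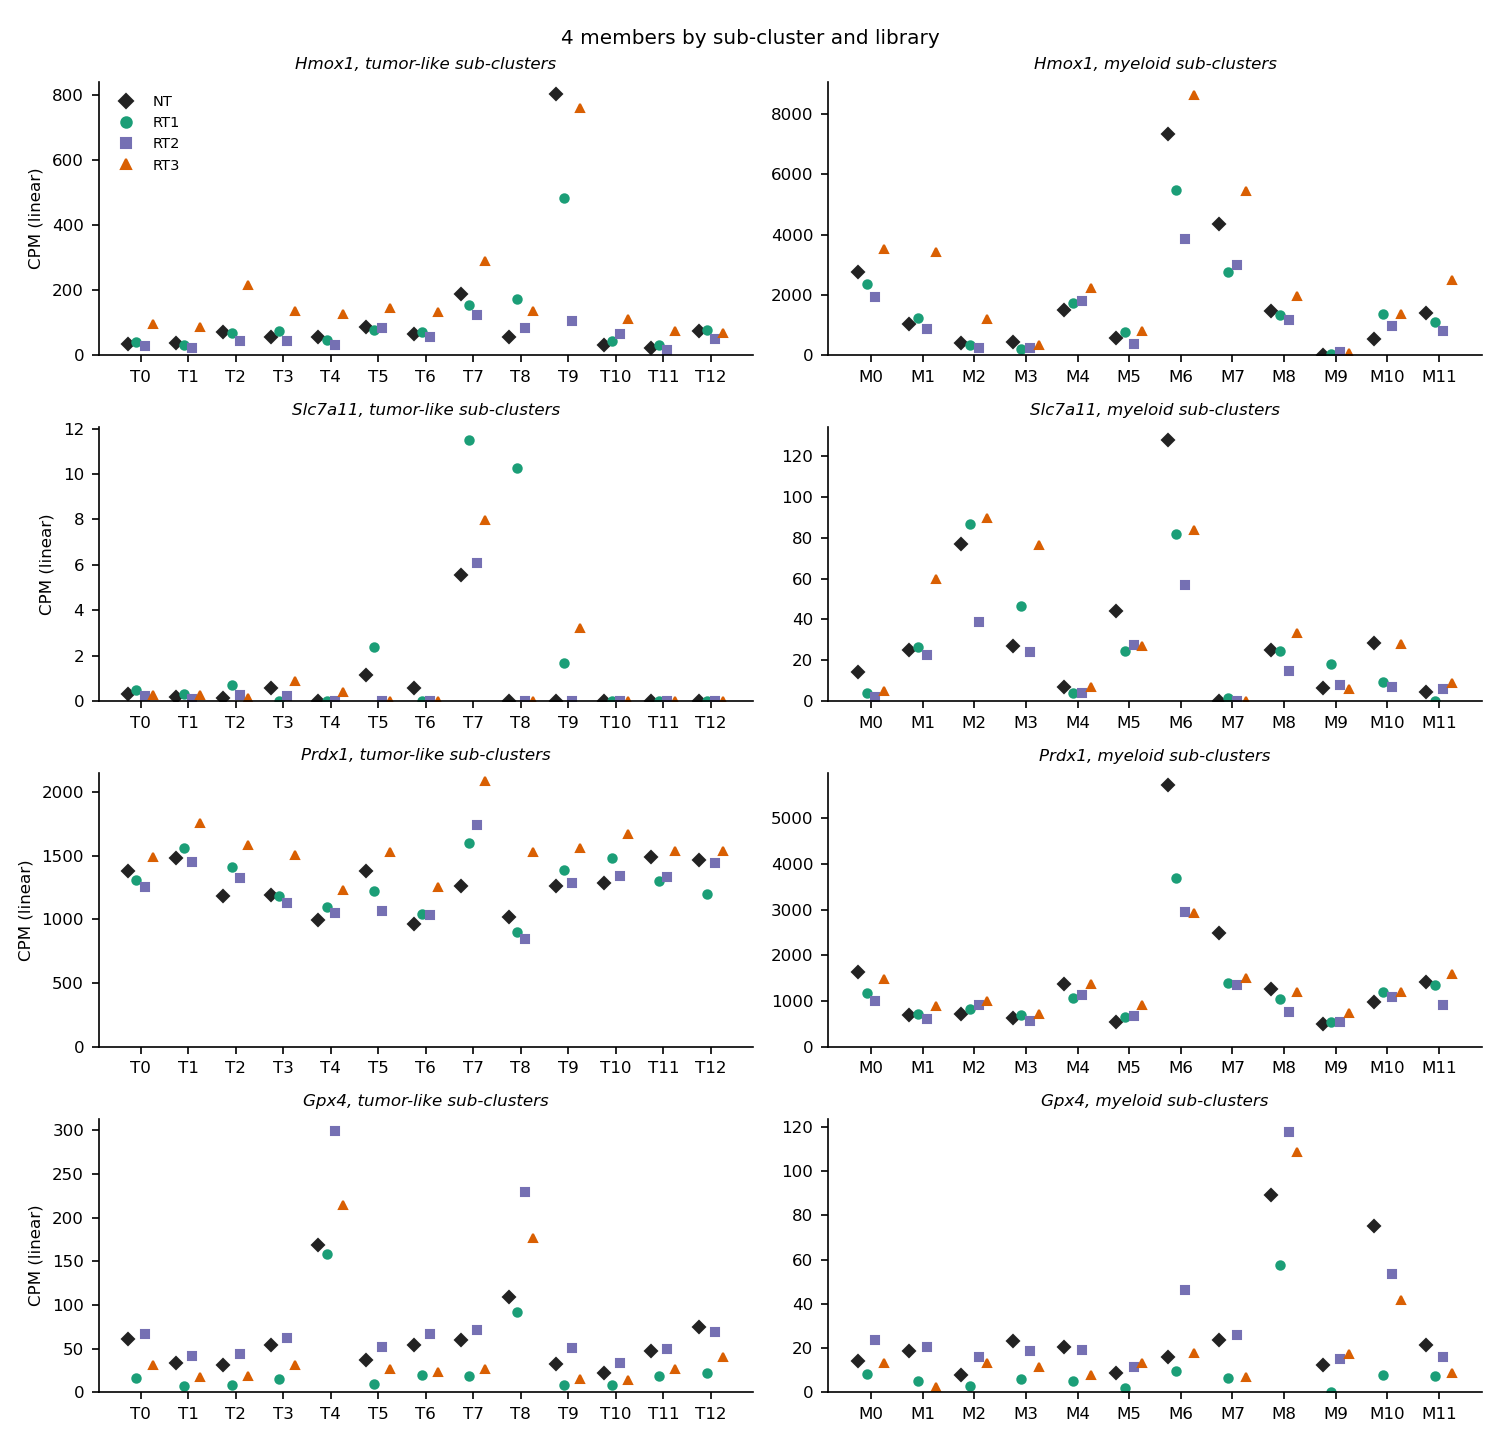
CPM of Hmox1, Slc7a11, Prdx1 and Gpx4, on linear axes from 0, are shown for the 13 tumor-like sub-clusters (T0 to T12, left) and 12 myeloid sub-clusters (M0 to M11, right), with 1 point per library. The myeloid sub-clusters hold macrophage-like, monocyte-like and dendritic-like cells, without neutrophil-like cells. Hmox1 peaked in T9 and M6, Slc7a11 and Prdx1 in T7 and M6, and Gpx4 in T4 and M8.

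The genes whose pattern over the 8 named classes was most like each member were sought among 8834 genes by the correlation of mean log2 levels. The 8 classes share the same 4 libraries, so the values describe these data only. For Hmox1 they were Atp6v0d2 (r = 0.986), Ftl1 (r = 0.984) and Siglec1 (r = 0.974), a subunit of the lysosomal proton pump, the ferritin light chain and a macrophage lectin. For Slc7a11 they were Lilra6 (r = 0.975), Ly6i (r = 0.974) and Trem1 (r = 0.971). Nqo1 was most like Ash2l (r = 0.980), Naxe (r = 0.979) and Chchd3 (r = 0.974), Gclm like Ahsa1 (r = 0.969), Dtd2 (r = 0.969) and Chchd7 (r = 0.962), and Gclc like Shc1 (r = 0.983), Serpinf1 (r = 0.981) and Scd1 (r = 0.979). Gpx4 was near to Stam (r = 0.975) and Gas2l1 (r = 0.967), and Txnrd1 to Gprc5a (r = 0.957), Psmg4 (r = 0.940) and Met (r = 0.939). Srxn1 went with Pnpla8 (r = 0.959), Anxa5 (r = 0.942) and Dtx4 (r = 0.930), Prdx1 with Tmem165 (r = 0.943), Eid1 (r = 0.912) and Plbd2 (r = 0.906), and Acsl4 with Lrch4 (r = 0.970), Sh3bp1 (r = 0.967) and Stk4 (r = 0.967).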

How the data were processed

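Single-cell libraries of LLC tumors (SeekOne MM Single Cell 3′ kit) were read from the tables of UMI counts that the authors deposited, 1 per library, as whole numbers without normalization, with no barcode under 499 UMIs. Per the labels, STAR 2.5.1b, featureCounts of Subread 1.6.4, Cell Ranger and the builds GRCm39 and mm39 are named, with no role or order given. Whether counting used the strand is not given in the sources used here. The tissue was depleted of erythrocytes, and dead cells were removed per the study's methods, while the labels make that step optional.

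Barcodes entered with 200 genes or more and a mitochondrial share of 20% or less. Counts were scaled to 10000 per cell, 2000 variable genes (without the genes read here) gave 30 principal components, and Harmony, rewritten because it was not installed (theta 2, lambda 1, sigma 0.1), joined the libraries. Leiden clustering (leidenalg 0.10.2, 20 neighbors, resolution 0.8) was followed by naming from marker lists. The naming rule was settled after a first clustering had been seen. A cluster stayed unnamed with fewer than 3 markers detected or with more markers of another class among its top 10 genes. It also stayed unnamed when shallow without a marker of its own class among those 10. The neutrophil-like cluster was shallow too, with a median of 0.189 of the library median of UMIs, but had 4 such markers and was named. Doublets were not removed, and the 8% of cells nearest to simulated doublets were left out as an alternative. UMIs were summed per library and class (numpy 2.4.6, scipy 1.17.1). The size rule was tested on simulated data, with counting error only and at the depth of tumor-like cells. That simulation holds no spread between libraries and no smaller class, so it cannot tell how the rule behaves there. No column of per-sample values was left unused.

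The 10 genes and the pathway lists were chosen with earlier results of these data known. Named genes are the 10 members, Nfe2l2, Keap1 and Bach1, pathway genes called in tumor-like, macrophage-like or monocyte-like cells with the 6 largest differences per direction and class, and the 3 genes most like each member. Some genes that these rules name are not reported here. Further genes that make up a small count were named after their values were seen, as were the genes set beside Gpx4, Rac2 and the sub-clusters, and Ftl1. Alternatives covered filters, integration, resolution, doublets, scaling, free RNA, left-out RT libraries, the fold and the count minimum, and, added after seeing the data, tumor-like cells with the Lum-led cluster.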

Additional observations from a re-analysis of the deposited data

Results flagged for a closer look

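In the 3 largest named classes, genes were singled out where every RT library lay on one side of NT in one class and on the other side in another. Nfe2l2 was higher in tumor-like cells (log2 mean 0.37) and lower in macrophage-like cells (-0.42), a gap of 0.80, and lower in monocyte-like cells (-0.91), a gap of 1.29. Prdx1 was higher in monocyte-like (0.31) and lower in macrophage-like cells (-0.39), a gap of 0.70. Slc7a11 was nominally higher in tumor-like (0.74) and lower in macrophage-like cells (-1.03), a gap of 1.77, where the tumor-like level of RT2 was inside the counting interval of NT. Smaller classes also held such opposite sides. Nfe2l2 was called higher in fibroblast-like and endothelial-like cells, as were 18.4% and 8.14% of the genes tested there. These classes had only 18 and 34 cells in NT. Txnrd1 was higher in tumor-like (0.18) and nominally lower in endothelial-like (-0.61) and lymphocyte-like cells (-0.31). In the latter 2 classes the counting intervals of all 3 RT libraries overlapped that of NT. It was also higher in neutrophil-like (1.45) and fibroblast-like cells (1.32), from 2 UMIs in NT in each. Acsl4 was nominally higher in dendritic-like cells (0.33) and lower in tumor-like (-0.33), monocyte-like (-0.15), fibroblast-like (-0.33) and lymphocyte-like cells (-0.13). In these classes other than tumor-like cells, every RT value of Acsl4 lay inside the counting interval of NT. Gclc was nominally higher in fibroblast-like (0.40, from 4 UMIs in NT) and lower in lymphocyte-like cells (-0.39). Every RT value of Gclc lay inside the counting interval of NT in both classes. Prdx1 was also higher in dendritic-like (0.53) and lower in lymphocyte-like (-0.22), fibroblast-like (-0.51) and endothelial-like cells (-0.26). Slc7a11 was also nominally higher in dendritic-like (0.81) and neutrophil-like cells (0.64), from 10 and 8 UMIs in NT. The counting intervals of all 3 RT libraries overlapped that of NT for Slc7a11 there. All of these share the same NT library, and the differences between classes were not tested.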

How the results depend on the processing

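No change of setting reversed a ratio that had 1 direction in every library. Of 658 recomputed ratios (47 ratios under 14 settings), 7 moved by more than 1 SD between libraries, namely Nfe2l2 and Gclm in monocyte-like cells and the macrophage-like over tumor-like ratios of Gpx4 and Acsl4. Among the counts, the member called higher in monocyte-like cells (1) became 2 at 12% mitochondrial UMIs or with no filter on low counts, and 0 with at least 500 genes, no integration, resolution 1.2 or a 2-fold rule. At resolution 0.4 and with a mean over cells, the member called was Srxn1 instead of Gclm. The pathway genes called higher in macrophage-like cells (4) became 7 at resolution 0.4 and with a mean over cells, and 1 under the 2-fold rule. Those called lower in macrophage-like cells (4) became 1 under the 2-fold rule and 7 with no filter. In monocyte-like cells, pathway genes called lower (2) became 0 at resolution 0.4 and under the 2-fold rule, and those called higher (13) became 4 under the 2-fold rule. In tumor-like cells, those called higher (13) became 4 and those called lower (2) became 0 under the 2-fold rule, and 1 was lower with a mean over cells. The cause of these shifts was not tested, other than that a 2-fold rule is stricter.

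Leaving out each RT library in turn gave 0 to 2 members higher and 0 to 1 lower in tumor-like cells, 0 to 0 higher and 0 to 1 lower in macrophage-like cells, and 1 to 2 higher and 0 to 1 lower in monocyte-like cells. Without RT3, Slc7a11 was called lower in macrophage-like and Gclc in monocyte-like cells, beside 9.44% and 4.88% of all genes. Pathway genes came to 13 to 15 higher and 2 to 4 lower in tumor-like cells, 5 to 8 and 4 to 6 in macrophage-like cells, and 13 to 15 and 2 to 4 in monocyte-like cells. Without RT2, 425 of all genes were called lower in tumor-like cells, against 107. No paired analysis was possible because NT is 1 library. The levels of small classes are limited by depth, with 8 Slc7a11 UMIs in the neutrophil-like cells of NT.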

Other observations

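A cluster of 7051 cells led by Lum and Islr was nearest to the tumor markers but was left unnamed. Its Hmox1 level was 119.9 CPM for NT against 118 for RT1, 56.6 for RT2 and 243 for RT3, above the tumor-like level in every library. Nqo1 was at 11.4 CPM for NT against 16.9 for RT1, 15.7 for RT2 and 17.3 for RT3 and Srxn1 at 98.8 CPM for NT against 132 for RT1, 114 for RT2 and 125 for RT3, with every RT value above NT for both. Gpx4 was at 61.5 CPM for NT against 16.8 for RT1, 77.1 for RT2 and 35.4 for RT3, again lowest in RT1. Acsl4 lay on both sides of NT there (0.05 ± 0.08). The ferritin light chain Ftl1 was lowest in RT1 in tumor-like cells (121 CPM for NT against 71.0 for RT1, 197 for RT2 and 156 for RT3), in macrophage-like cells (952 CPM for NT against 413 for RT1, 992 for RT2 and 823 for RT3) and in monocyte-like cells (747 CPM for NT against 244 for RT1, 799 for RT2 and 629 for RT3), while Fth1 of RT1 was close to that of RT2 and RT3 in tumor-like cells. Pseudogene copies of Ftl1 are annotated, and 1 of them is listed in the tables.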
